A study of Mus musculus with 38 samples.

Results

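The genes described here are 8 members of the matrix metalloproteinase system of the heart: the 4 tissue inhibitors of metalloproteinases, Timp1, Timp2, Timp3 and Timp4, and the metalloproteinases Mmp2, Mmp3, Mmp14 and Mmp23. They were taken by Ensembl identifier from a table of 35682 genes, and each symbol had exactly 1 row. The table held RNA sequencing counts of 38 libraries of cardiomyocytes, endothelial cells (ECs) and fibroblasts from C57BL/6 male mice of 8 to 12 weeks of age. In the group labelled SHAM (Sham), mice took vehicle (DMSO in saline) by mouth each day for 6 weeks and had an open chest operation with no ligation. In the group labelled Control_IR (Control-AMI), mice took the same vehicle and then had 30 min of ischemia by ligation of the left anterior descending artery and 2 h of reperfusion. In the group labelled EMPA_IR (EMPA-Pre-AMI), mice took empagliflozin, an inhibitor of the renal glucose transporter SGLT2, at 10 mg/kg/d in that vehicle for 6 weeks before the same ischemia and reperfusion. Each library was made from 2 pooled hearts, so that n counts pools and not animals, and libraries of different populations can come from the same hearts. In the order Sham, Control-AMI and EMPA-Pre-AMI, there were 4, 5 and 4 cardiomyocyte libraries, 4, 4 and 5 EC libraries and 4, 4 and 4 fibroblast libraries. ECs were sorted as CD45- CD31+ cells and fibroblasts as CD45- CD31- CD90+ cells, whereas cardiomyocytes were pelleted by a slow spin and not sorted.

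Metalloproteinases are zinc enzymes that cut the proteins of the extracellular matrix, and TIMPs bind and block them. Mmp2 (gelatinase A) cuts denatured collagen and basement membrane collagen, Mmp3 (stromelysin) cuts a wide range of matrix proteins and activates other metalloproteinases, Mmp14 is anchored in the membrane and activates the Mmp2 proenzyme at the cell surface, and Mmp23 is an unusual member that lacks the hemopexin domain. Timp2 inhibits Mmp2 and also takes part in its activation by Mmp14, Timp3 is bound to the matrix, Timp1 is an inducible inhibitor, and Timp4 is known for its high level in the heart. These actions are those of the proteins, whereas the values below are RNA levels after a short reperfusion.

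In GRCm39, the genes lie at chrX:20736316-20740976 (plus strand) for Timp1, chr11:118191887-118246566 (minus strand) for Timp2, chr10:86136236-86185371 (plus strand) for Timp3 and chr6:115187773-115229336 (minus strand) for Timp4. The enzymes lie at chr8:93553902-93580049 (plus strand) for Mmp2, chr9:7445822-7455975 (plus strand) for Mmp3, chr14:54668878-54682821 (plus strand) for Mmp14 and chr4:155735111-155738378 (minus strand) for Mmp23. Timp1, Timp3 and Timp4 overlap the synapsin genes Syn1, Syn3 and Syn2 on the opposite strand, and Timp2 overlaps Cep295nl on its own strand. The library kit keeps the strand, but its use in the assignment of reads is not given in the sources used here, so reads of overlapping genes are uncertain to that extent. RefSeq promoter windows of 300 bases were at hand for 7 of the 8 genes, and each was placed in GRCm39 by its only exact match. They were searched for the binding site of AP-1, a transcription factor of immediate injury responses, as TGAGTCA or TGACTCA, which are each the reverse strand of the other. These letters were in 1709 of 32851 windows (5.20%) and in 1 of the 8 windows of the members, that of Mmp3. The part upstream of the annotated gene start is shown for Mmp3, and for Timp1 and Timp3, the inhibitors on which the results turn, with the AP-1 letters in capitals.
Mmp3, chr9:7445572-7445821, plus strand: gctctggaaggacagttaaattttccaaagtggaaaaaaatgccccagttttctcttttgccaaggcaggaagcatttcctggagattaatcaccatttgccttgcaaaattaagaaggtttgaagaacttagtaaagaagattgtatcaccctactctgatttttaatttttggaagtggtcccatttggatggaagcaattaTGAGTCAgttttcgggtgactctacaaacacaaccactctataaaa
Timp1, chrX:20736155-20736315, plus strand: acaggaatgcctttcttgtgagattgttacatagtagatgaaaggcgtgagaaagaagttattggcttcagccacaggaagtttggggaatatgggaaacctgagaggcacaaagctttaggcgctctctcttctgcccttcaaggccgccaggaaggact
Timp3, chr10:86136026-86136235, plus strand: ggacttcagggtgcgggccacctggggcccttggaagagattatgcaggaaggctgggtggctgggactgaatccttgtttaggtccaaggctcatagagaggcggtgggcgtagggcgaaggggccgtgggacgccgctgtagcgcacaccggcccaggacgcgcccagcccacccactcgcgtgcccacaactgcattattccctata
The AP-1 letters of Mmp3 began 46 bases before the gene start. No match in a window says only that these letters are not in it.

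The depth was 2031726 to 4509305 counts a library for cardiomyocytes, 1352528 to 2195319 for ECs and 1946070 to 2821386 for fibroblasts, and mitochondrially encoded genes took 46.6% to 66% of the cardiomyocyte counts. Levels are given in CPM, counts scaled to a common library size over all 38 libraries, and they come from the 3′ ends of transcripts. All 12 fibroblast genes, all 12 endothelial genes and all 8 cardiomyocyte genes on the marker lists had their highest mean Sham level in the population of that name. Other cells were still visible in each population. The summed level of the 12 fibroblast genes (Col1a1, Col1a2, Col3a1, Dcn, Lum, Pdgfra, Dpt, Tcf21, Fbln1, Pcolce, Mfap5 and Thy1, which encodes the CD90 of the sort) was 13879 to 19170 CPM in the Sham fibroblasts. It was 569, 1147, 434 and 705 CPM in the Sham ECs, 5858, 1558, 1752 and 3324 CPM in the Control-AMI ECs and 510.2, 769.5, 440, 402 and 519 CPM in the EMPA-Pre-AMI ECs, in the order of the library numbers. Every Control-AMI EC library was above every other EC library, and Control-AMI libraries 1 and 4 were highest. Those 2 also share a run of positions in the sequencing sample sheet (list 4), read here from the sample labels, that holds no other EC library. In the same libraries, the summed endothelial list was 10287, 9733, 10499 and 9700.5 CPM in Sham, 5212, 7116, 7124 and 6704 CPM in Control-AMI and 10349, 7124, 10134, 9286 and 9998 CPM in EMPA-Pre-AMI. The summed list of 10 leukocyte genes was 24.7, 18.2, 6.41 and 9.09 CPM in the Sham ECs, 23.5, 37.8, 481 and 39.5 CPM in Control-AMI and 15.3, 12.5, 28.9, 48.9 and 90.2 CPM in EMPA-Pre-AMI, so that Control-AMI library 3 stood apart in it.

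In hearts without ischemia, 6 of the 8 members were highest in fibroblasts and 2, Timp3 and Timp4, in ECs. Mmp2 was 459, 431, 479.9 and 427 CPM in the Sham fibroblasts, 12.7, 24.6, 6.41 and 8.66 CPM in the Sham ECs and 132, 81.4, 116 and 142 CPM in the Sham cardiomyocytes. The 3 populations did not overlap. The log2 difference of ECs from fibroblasts was -5.04 ± 0.32 (SE; FDR: 1.68e-09) by edgeR's quasi-likelihood test. Mmp14, which activates Mmp2, had the same order, with 190, 235, 268 and 193 CPM in fibroblasts, 16, 21.6, 19.5 and 24.2 CPM in ECs and 59.7, 53.5, 56.2 and 56.8 CPM in cardiomyocytes. Its log2 difference of ECs from fibroblasts was -3.41 ± 0.18 (SE; FDR: 2.74e-11). Timp2, the partner of both, was 3953, 2059.9, 2815 and 2315 CPM in fibroblasts, 277, 389, 166 and 321 CPM in ECs and 1148, 969, 999 and 1218 CPM in cardiomyocytes. Fibroblasts were again above both other populations in every library, and the log2 difference of ECs from fibroblasts was -3.24 ± 0.25 (SE; FDR: 3.90e-09). Mmp23 and Mmp3 had the same leading population. Mmp23 was 80.9, 83.5, 90.9 and 61.6 CPM in fibroblasts, 5.45, 3.95, 1.22 and 3.90 CPM in ECs and 31.5, 11.5, 21.9 and 25.8 CPM in cardiomyocytes. Mmp3 was 40.9, 27.2, 35.6 and 28.5 CPM in fibroblasts, 0.727, 4.56, 0.611 and 4.33 CPM in ECs and 5.14, 4.37, 2.34 and 5.16 CPM in cardiomyocytes. For Mmp3, ECs and cardiomyocytes overlapped and did not pass the test of their difference, which was 0.74 ± 0.52 (SE; FDR: 0.236) on the log2 scale. Timp1 was also highest in fibroblasts, at 12.5, 15.8, 7.06 and 12.9 CPM in fibroblasts and at 2.57, 2.19, 0.781 and 4.01 CPM in cardiomyocytes. The Sham ECs held only 4, 1, 1 and 1 Timp1 counts, which is close to what these depths can show.

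**Figure D1:**
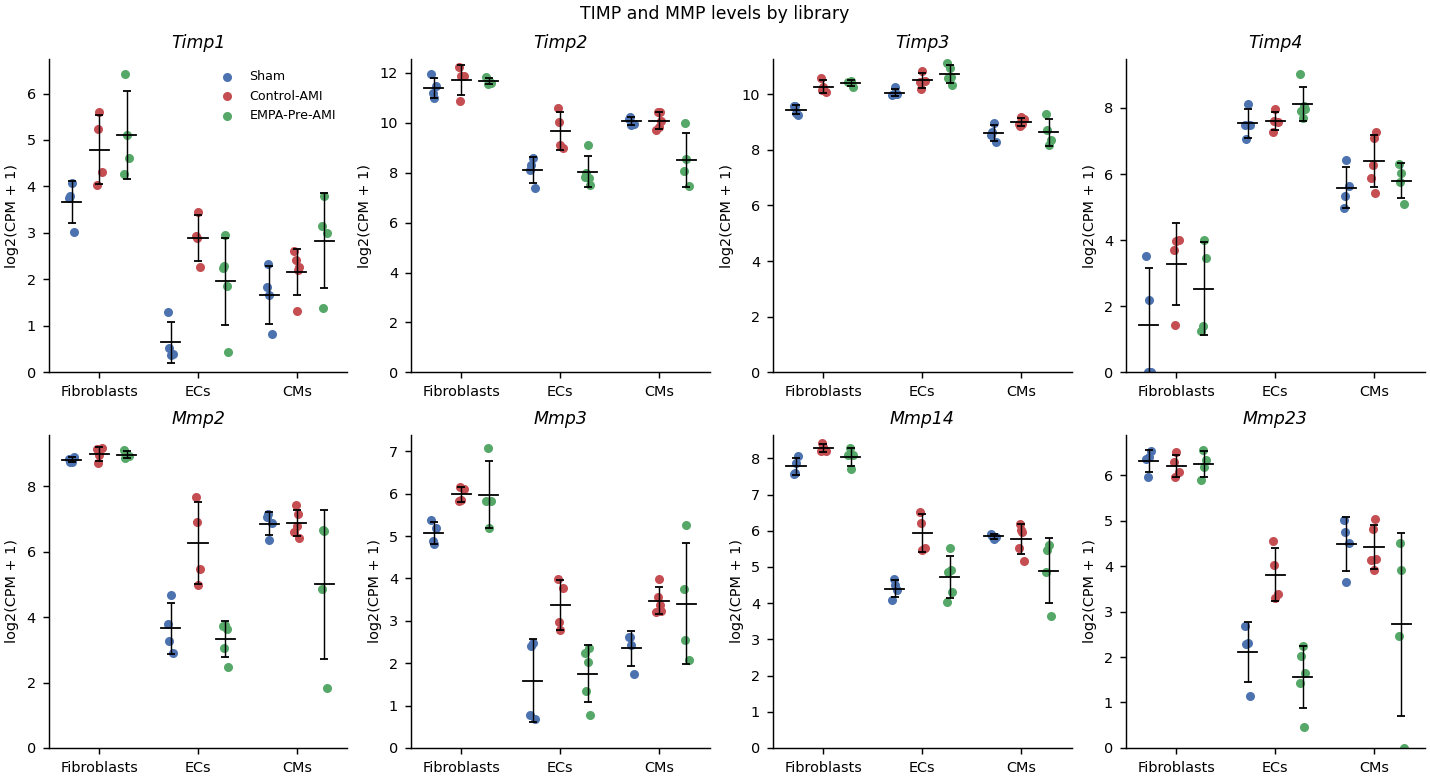
Level of each member as log2(CPM + 1) in every library (points), with the mean (bar) and SD (whiskers) of each group, in fibroblasts, ECs and cardiomyocytes (CMs). Fibroblasts lead for 6 genes, whereas Timp3 and Timp4 are highest in ECs, and the Control-AMI ECs stand above the Sham ECs for Timp1, Timp2 and all 4 Mmp genes.

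The endothelial pair had another order. Timp4 was 177, 279, 176 and 133 CPM in the Sham ECs, 30.2, 85.2, 48.4 and 39.6 CPM in the Sham cardiomyocytes and 10.4, 3.52, 0 and 0 CPM in the Sham fibroblasts. ECs were higher than fibroblasts by 5.79 ± 0.83 (SE; FDR: 0.000245) on the log2 scale, a fitted value that depends on the 2 fibroblast libraries at 0, and the log2 difference of cardiomyocytes from ECs was -1.94 ± 0.66 (SE; FDR: 0.0282). The trace of Timp4 in fibroblasts lay in the libraries with more endothelial RNA: the summed endothelial list was 555, 499, 188 and 135 CPM in the same 4 libraries. Timp3 was 994, 1221, 1017 and 1039 CPM in the Sham ECs, 766, 646, 615 and 769 CPM in the Sham fibroblasts and 365, 495, 309 and 397 CPM in the Sham cardiomyocytes. ECs did not overlap with either population and were higher than fibroblasts by 0.64 ± 0.16 (SE; FDR: 0.00280).

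In fits that take the populations as independent, all 8 members passed the test between Sham ECs and fibroblasts, against 40.7% of the genes tested, and all 8 between cardiomyocytes and fibroblasts, against 52.2%. Between Sham cardiomyocytes and ECs, 7 of 8 passed, against 57.5%. With a call so common, the directions say more than the counts: 6 members were lower in ECs than in fibroblasts, 7 were lower in cardiomyocytes than in fibroblasts, and 5 were higher in cardiomyocytes than in ECs. In bulk libraries, fewer cells of a type and less RNA per cell cannot be told apart, and so it is with RNA of other cells. The fibroblast list in the Sham cardiomyocytes stood at 20.9% ± 3.24 (SD, n = 4) of its mean in Sham fibroblasts, and Mmp2 stood at 26.2% ± 5.89 (SD, n = 4), Mmp14 at 25.6% ± 1.14 (SD, n = 4) and Timp1 at 19.8% ± 11 (SD, n = 4). Timp2 stood higher, at 38.9% ± 4.27 (SD, n = 4). The endothelial list in the same libraries stood at 18.4% ± 3.01 (SD, n = 4) of its EC level. If both shares are applied to the levels of fibroblasts and ECs, their sum gives 342 CPM of Timp3 where the mean was 392 CPM, 36.0 CPM of Timp4 where it was 50.8 CPM, and 634 CPM of Timp2 where it was 1083 CPM. For Mmp2, Mmp14 and Mmp23 it gives 96.1, 49.9 and 17.2 CPM where the means were 118, 56.6 and 22.7 CPM. For Mmp3 and Timp1 the sum was above the mean, at 7.37 and 2.63 CPM against 4.25 and 2.39 CPM. This reckoning was added after the values were seen and is a description only.

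After ischemia, Timp3 rose in fibroblasts and was the only member of the 8 to pass the test there. It was 766, 646, 615 and 769 CPM in Sham, 1549, 1232, 1075 and 1134 CPM in Control-AMI and 1389.9, 1417, 1210 and 1379.8 CPM in EMPA-Pre-AMI. Every library of the AMI groups was above every Sham library. The log2 fold change from Sham was 0.82 ± 0.16 (SE; FDR: 0.00929) in Control-AMI and 0.94 ± 0.16 (SE; FDR: 0.00347) in EMPA-Pre-AMI, 2 comparisons that share their Sham libraries. The call held in all 12 fits that left out 1 library, in both comparisons. Since Timp3 was higher in Sham ECs than in Sham fibroblasts, endothelial RNA in the fibroblast libraries bears on it. The endothelial list ran at 555, 499, 188 and 135 CPM in the Sham fibroblasts, 584, 668, 659.8 and 362 CPM in Control-AMI and 231, 719, 707 and 204 CPM in EMPA-Pre-AMI. These sums overlapped between the groups, and they were at most 10.2% of the EC level of the same condition. The mean share of that level was 3.42% (Sham), 8.70% (Control-AMI) and 4.96% (EMPA-Pre-AMI). From Sham to Control-AMI, 9 of the 11 endothelial list genes tested had a log2 fold change above 0. Their median was 0.83, where Timp3 had 0.82, and 0 were called. These 2 fold changes start from unlike levels. In the Sham fibroblasts, Timp3 was at 65.5% ± 7.51 (SD, n = 4) of its EC level and the endothelial list at 3.42%. From Sham to EMPA-Pre-AMI, 9 of 11 were again above 0, with a median of 0.45 and 0 called. The part of endothelial RNA in the rise of Timp3 was not tested. In all, 1 of 8 members was called in Control-AMI against Sham, where 4.16% of the genes were called, and 1 of 8 in EMPA-Pre-AMI against Sham, where 5.11% were.

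Other fibroblast members had higher values after AMI without passing the test. Timp1 was 12.5, 15.8, 7.06 and 12.9 CPM in Sham, 15.4, 47.6, 18.8 and 36.5 CPM in Control-AMI and 18.3, 33.6, 23.3 and 85.2 CPM in EMPA-Pre-AMI. The Sham libraries lay below all the EMPA-Pre-AMI libraries but overlapped with Control-AMI by 1 library, and the log2 fold changes from Sham were 1.27 ± 0.49 (SE; FDR: 0.175) and 1.72 ± 0.50 (SE; FDR: 0.0657). Mmp3 was 40.9, 27.2, 35.6 and 28.5 CPM in Sham, 56, 56.3, 68.6 and 70.1 CPM in Control-AMI and 55.5, 35.8, 55.6 and 133 CPM in EMPA-Pre-AMI. Its Control-AMI libraries were all above Sham, with log2 fold changes of 0.91 ± 0.31 (SE; FDR: 0.114) and, in EMPA-Pre-AMI, 1.07 ± 0.31 (SE; FDR: 0.0563). Leaving out EMPA-Pre-AMI library 4 gave Mmp3 an FDR of 0.0148 in Control-AMI against Sham. In EMPA-Pre-AMI against Sham, Mmp3 was called without EMPA-Pre-AMI library 2 or Sham library 1 (lowest FDR: 0.0200), and Timp1 without EMPA-Pre-AMI library 1 (FDR: 0.0357). Mmp14 was 190, 235, 268 and 193 CPM in Sham and 294, 316, 292 and 340.4 CPM in Control-AMI, without overlap but with 0.47 ± 0.17 (SE; FDR: 0.126) on the log2 scale. The fibroblast genes Mmp2, Mmp23 and Timp2 had overlapping groups, with log2 fold changes from -0.12 for Mmp23 to 0.34 for Timp2 in Control-AMI. Mmp2, for example, was 459, 431, 479.9 and 427 CPM in Sham, 571, 502, 573 and 419 CPM in Control-AMI and 553, 502, 486 and 463 CPM in EMPA-Pre-AMI. Timp4 stayed a trace, at 12, 14.6, 15.2 and 1.70 CPM in Control-AMI and 1.41, 15, 10.0 and 1.66 CPM in EMPA-Pre-AMI, and its lowest libraries were those lowest in the endothelial list.

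With empagliflozin, no member passed edgeR's test between the 2 AMI groups of fibroblasts: 0 of 8 had an FDR under 0.05 (0% of all genes), 0 had an unadjusted p under 0.05, and DESeq2 called 0. Over all 10691 genes, 170 had an unadjusted p under 0.05, and DESeq2 called 0 as well. The log2 fold changes ran from -0.63 for Timp4 to 0.44 for Timp1. The SE was 0.15 for Mmp2, 0.16 for Timp3 and 0.47 for Timp1. A call takes a difference of several SE: in Control-AMI against Sham, Mmp14 with 0.47 ± 0.17 (SE; FDR: 0.126) was not called. Differences well above 1 SE could thus have gone undetected.

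**Figure D2:**
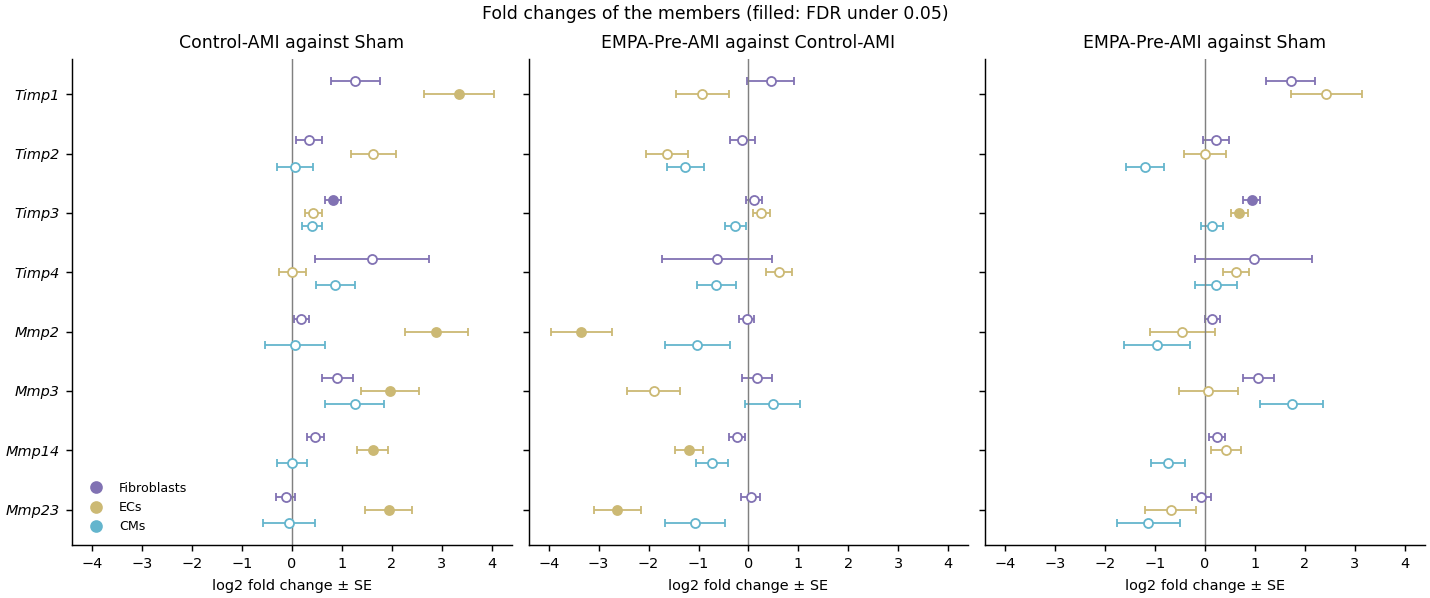
Log2 fold change with its SE for each member in fibroblasts, ECs and cardiomyocytes (CMs), by edgeR, in 3 comparisons (filled points: FDR under 0.05). Timp3 is the filled gene of the fibroblasts, and 5 EC genes are filled in Control-AMI against Sham and 3 on the other side of 0 in EMPA-Pre-AMI against Control-AMI. Timp1 was not tested in cardiomyocytes.

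In ECs, 5 of the 8 members rose in Control-AMI against Sham (6.56% of all genes were called): Timp1, Mmp2, Mmp3, Mmp14 and Mmp23. Mmp2 was 12.7, 24.6, 6.41 and 8.66 CPM in Sham and 204, 30.8, 43.5 and 119.8 CPM in Control-AMI. All Control-AMI libraries were higher, with libraries 1 and 4 far above libraries 2 and 3, and the log2 fold change was 2.89 ± 0.63 (SE; FDR: 0.0213). Mmp14 was 16, 21.6, 19.5 and 24.2 CPM in Sham and 91, 43, 44.8 and 73.8 CPM in Control-AMI. The groups did not overlap, and the log2 fold change was 1.61 ± 0.30 (SE; FDR: 0.00360). Mmp23 went from 5.45, 3.95, 1.22 and 3.90 CPM to 22.6, 8.90, 9.38 and 15.2 CPM, with a log2 fold change of 1.93 ± 0.48 (SE; FDR: 0.0158). Mmp3 went from 0.727, 4.56, 0.611 and 4.33 CPM to 14.8, 5.93, 12.8 and 6.79 CPM, with 1.96 ± 0.57 (SE; FDR: 0.0410). Both had all their Control-AMI libraries above Sham. Both also passed the count filter only with the Control-AMI libraries, where they were higher, so their tests could hardly have shown a fall. Mmp3 was high in libraries 1 and 3, of which library 3 was the one high in leukocyte genes, whose part in the result was not tested. Timp2 too had all its Control-AMI libraries above Sham, at 277, 389, 166 and 321 CPM in Sham and 1529, 548, 514 and 1033 CPM in Control-AMI. With 1.63 ± 0.45 (SE; FDR: 0.0602) it missed the threshold by edgeR, while DESeq2 called it (FDR: 0.00761).

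These rises came with more RNA of fibroblast genes in the same libraries: 10 of the 11 fibroblast list genes tested rose too, with a median log2 fold change of 2.32 against -0.02 over all genes. As a share of its mean in the fibroblasts of the same condition, the list was at 3.56, 7.18, 2.71 and 4.41% in the Sham ECs and at 36.5, 9.71, 10.9 and 20.7% in the Control-AMI ECs. Mmp2 was at 2.83, 5.48, 1.43 and 1.93% and 39.5, 5.96, 8.42 and 23.2% of its own fibroblast level in those libraries. In Control-AMI, its 4 libraries had the same order as in the list, and its mean, 19.3% ± 15.5 (SD, n = 4), was 0.990 times that of the list, 19.5% ± 12.4 (SD, n = 4). Mmp23 was at 19% ± 8.70 (SD, n = 4), Mmp14 at 20.3% ± 7.51 (SD, n = 4) and Mmp3 at 16% ± 6.97 (SD, n = 4), which are 0.979, 1.04 and 0.825 times the list. Timp2 was at 25.4% ± 13.4 (SD, n = 4), or 1.30 times. These are ratios of means, and the ratios by library spread more widely. In Control-AMI libraries 1 to 4, Mmp2 was at 1.08, 0.614, 0.771 and 1.12 times the list and Mmp14 at 0.803, 1.43, 1.32 and 1.15 times. Mmp23 was at 0.842, 1.25, 1.17 and 0.995 times and Mmp3 at 0.645, 0.973, 1.87 and 0.522 times. In the Sham ECs, where the list was at 4.47% ± 1.93 (SD, n = 4), Timp2 and Mmp14 stood further above it, at 10.3% ± 3.35 (SD, n = 4) and 9.19% ± 1.57 (SD, n = 4), while Mmp2 was at 2.92% ± 1.81 (SD, n = 4) and Mmp23 at 4.58% ± 2.22 (SD, n = 4).

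**Figure D3:**
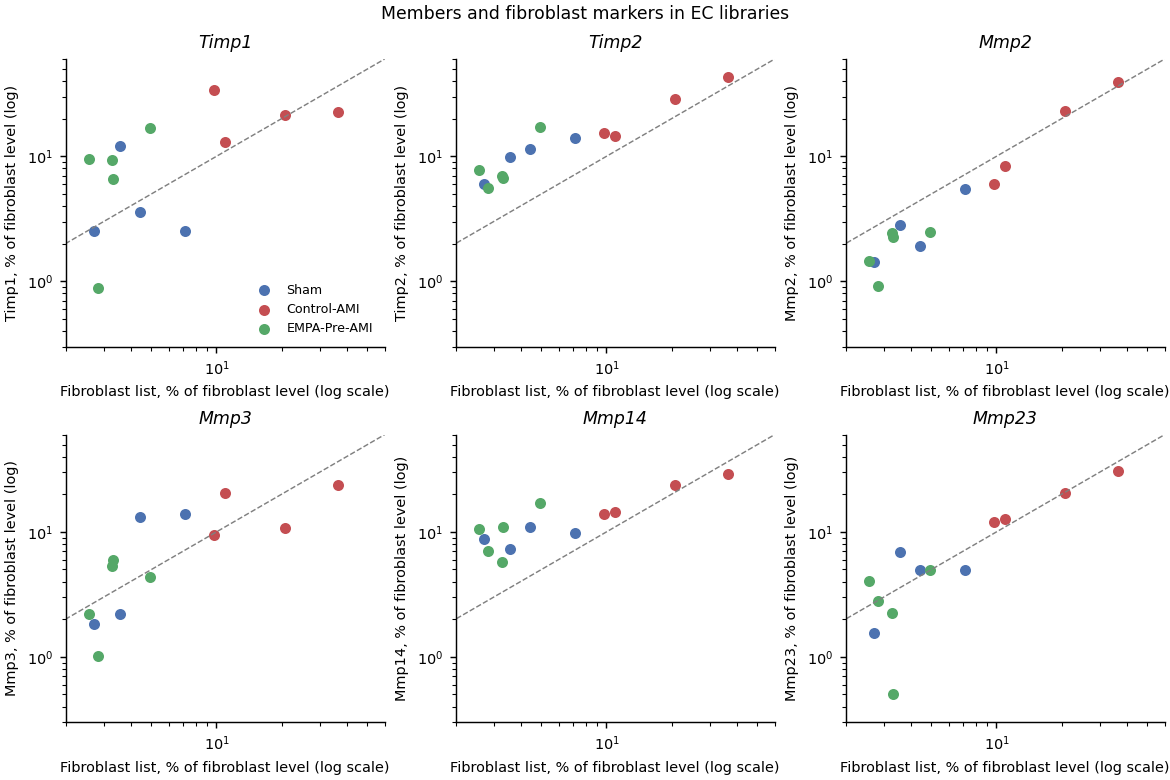
Each EC library by its summed fibroblast list (x axis) and by 1 member (y axis), both as a percent of the mean fibroblast level of the same condition, on log axes; the dashed line marks equal shares. Mmp2 rises with the list and lies below the line in Sham and EMPA-Pre-AMI. In Control-AMI, Mmp2 lies below the line in the libraries lower in the list and just above it in those higher in the list. Timp2 and Mmp14 lie above the line where the fibroblast list is low, and Timp1 scatters.

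With the fibroblast list as a term in the model of the ECs, 0 of 8 members were called in Control-AMI against Sham by edgeR, with 1 (Timp1) at an unadjusted p under 0.05, and 0 of all genes, with 782 at such a p. Mmp2 went from 2.89 to -0.43 ± 0.43 (SE; FDR: 0.911), Mmp14 to 0.36 ± 0.47 (SE; FDR: 0.933), Mmp23 to 0.32 ± 0.82 (SE; FDR: 0.972) and Mmp3 to 0.67 ± 0.96 (SE; FDR: 0.952). In this fit the SE widened for Mmp14, Mmp23 and Mmp3 and narrowed for Mmp2, and Timp2 was -0.47 ± 0.41 (SE; FDR: 0.894). The term was the mean log2 CPM of the 12 list genes (prior count of 2) in each library, and its values by library are not given here. Every Control-AMI EC library was above every other EC library in the summed list, and 10 of the 11 list genes tested rose, so the term is taken to follow the group largely. The fit thus cannot tell the group from the list, and its lost calls and turned signs do not give the source of the RNA. Without Control-AMI libraries 1 and 4, Mmp2 fell to 1.48 ± 0.41 (SE; FDR: 0.0708), Mmp14 to 1.10 ± 0.31 (SE; FDR: 0.0686) and Mmp23 to 1.32 ± 0.61 (SE; FDR: 0.326). Mmp3 was 1.86 ± 0.71 (SE; FDR: 0.198) there. The sample-sheet list, the fibroblast RNA and the group cannot be told apart in those 2 libraries. When 1 library was left out at a time, Mmp14 was called in all 13 fits. The call of Mmp2 was lost without Control-AMI library 4 or Sham library 3 or 4 (log2 fold changes of 2.27 to 3.41 over the 13 fits, FDR up to 0.0701), that of Mmp23 without Control-AMI library 1 or Sham library 3 (1.61 to 2.21, FDR up to 0.0842), and that of Mmp3 without Control-AMI library 1, 3 or 4 or Sham library 1 or 3 (1.64 to 2.46, FDR up to 0.140).

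Timp1 kept its call in some fits where the enzymes lost theirs, and it was too low to be tested in others where enzymes were called. With only the 2 groups compared, 7 members were tested, and Mmp14 and Mmp23 were called. With at least 10 counts in every library, 5 members were tested, and Mmp14 and Mmp2 were called. Timp1 was removed by the count filter in both fits, so they say nothing on it. Within sample-sheet list 2 alone, Timp1 missed the threshold by edgeR (FDR: 0.0521). Its counts in the EC libraries were 4, 1, 1 and 1 for Sham and 23, 27, 9 and 16 for Control-AMI, with 11, 20, 1, 10 and 7 for EMPA-Pre-AMI. In the same order of groups, the levels were 1.45, 0.304, 0.305 and 0.433 CPM, 6.67, 10.0, 3.84 and 6.39 CPM and 3.73, 6.77, 0.353, 3.85 and 2.65 CPM. All Control-AMI libraries were above all Sham libraries, and the highest was library 2, which had the lowest fibroblast list of its group. The log2 fold change was 3.35 ± 0.70 (SE; FDR: 0.00504), and it rests on 7 Sham counts in all. No Sham library held 10 counts, so Timp1 passed the count filter only through the AMI libraries, where it was higher. Its test could therefore hardly have shown a fall. It was 3.41 ± 0.85 (SE; FDR: 0.0365) without libraries 1 and 4, where Timp1 was the only member still called, and 3.52 ± 0.84 (SE; FDR: 0.0284) when the sample-sheet list entered the model, and it was called in all 13 fits that left out 1 library. With the fibroblast list as a term, the estimate was 3.27 ± 1.14 (SE; FDR: 0.429). As a share of its fibroblast level, Timp1 was at 22.5, 33.9, 13 and 21.6% in the Control-AMI ECs, against 36.5, 9.71, 10.9 and 20.7% for the list.

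With empagliflozin, 3 of the 8 members were lower in ECs than in Control-AMI (2.63% of all genes were called): Mmp2, Mmp14 and Mmp23. Mmp2 was 12.2, 12.5, 4.59, 7.32 and 11.4 CPM in the 5 EMPA-Pre-AMI libraries, all below Control-AMI, with a log2 fold change of -3.34 ± 0.60 (SE; FDR: 0.0148). Mmp23 was 1.70, 3.72, 2.12, 3.08 and 0.379 CPM, again without overlap, with -2.62 ± 0.47 (SE; FDR: 0.00392). Mmp14 was 15.3, 45, 18.7, 28.1 and 29.2 CPM, with library 2 inside the range of Control-AMI, and -1.19 ± 0.28 (SE; FDR: 0.0232). Mmp3 was 3.73, 3.05, 0.706, 1.54 and 4.17 CPM, all below Control-AMI, but missed the threshold with -1.90 ± 0.53 (SE; FDR: 0.0573). Timp2, at 226, 556, 182, 255 and 219 CPM, overlapped through library 2 and missed it too, with -1.63 ± 0.42 (SE; FDR: 0.0851). Timp1 overlapped as well and gave -0.92 ± 0.53 (SE; FDR: 0.527). Mmp3 and Mmp23 passed the count filter of this fit only with the Control-AMI libraries, where they were higher.

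The fibroblast list moved the same way: all 11 of its genes tested were lower in EMPA-Pre-AMI than in Control-AMI, with a median log2 fold change of -2.42 against 0.02 over all genes, and its share was 3.27, 4.93, 2.82, 2.58 and 3.32% of the fibroblast level. The same libraries had Mmp2 at 2.44, 2.50, 0.915, 1.46 and 2.27% and Mmp14 at 5.77, 17, 7.07, 10.6 and 11%. EMPA-Pre-AMI library 2, the highest of its group for Mmp14 and Timp2, was also the highest in the list. There, however, the list was at 4.93% and Mmp2 at 2.50% of the fibroblast level, while Mmp14 and Timp2 were each at 17.0%. The part of fibroblast RNA in these values was not tested. With the list as a term, edgeR called 0 of 8 members and 0 of all genes, with 0 members and 263 genes at an unadjusted p under 0.05, and Mmp2 was 0.45 ± 0.47 (SE; FDR: 1.000), Mmp14 0.17 ± 0.49 (SE; FDR: 1.000) and Mmp23 -0.81 ± 0.88 (SE; FDR: 1.000). In this comparison too, the list and the group cannot be told apart by such a fit. Without Control-AMI libraries 1 and 4, Mmp2 was still called at -1.94 ± 0.40 (SE; FDR: 0.0377), while Mmp23 was -2.03 ± 0.60 (SE; FDR: 0.252) and Mmp14 -0.69 ± 0.30 (SE; FDR: 0.681). Within sample-sheet list 2 alone, 0 of 8 members were called by edgeR in either comparison, with 6 at an unadjusted p under 0.05 in Control-AMI against Sham and 3 in EMPA-Pre-AMI against Control-AMI. When 1 library was left out at a time, Mmp23 was called in all 13 fits, the call of Mmp2 was lost without EMPA-Pre-AMI library 4 (FDR: 0.0521), and that of Mmp14 was lost without Control-AMI library 1 or 4 or EMPA-Pre-AMI library 1, 3, 4 or 5 (log2 fold changes of -1.45 to -0.98 over the 13 fits, FDR up to 0.111).

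**Figure D4:**
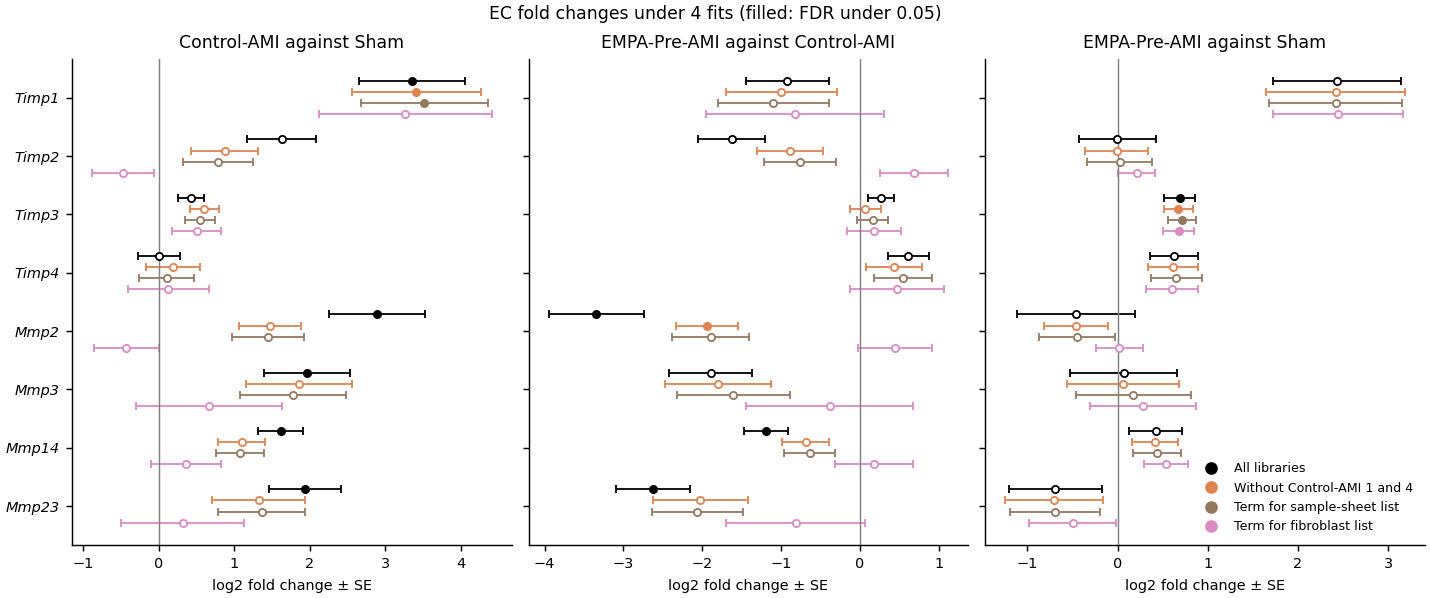
Log2 fold change with its SE for each member in ECs under 4 fits (filled points: FDR under 0.05): all libraries, Control-AMI libraries 1 and 4 left out, the sample-sheet list in the model, and the fibroblast list in the model. Mmp2 moves from 2.89 to -0.43 with the fibroblast term in Control-AMI against Sham, while Timp3 stays between 0.68 and 0.71 in all 4 fits of EMPA-Pre-AMI against Sham. In the comparisons that include Control-AMI, the fibroblast list and the group cannot be told apart.

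The 2 inhibitors that were higher in ECs than in the other populations did not follow the fibroblast list. Timp3 in ECs was 994, 1221, 1017 and 1039 CPM in Sham, 1394, 1838, 1435 and 1172 CPM in Control-AMI and 2217, 1983, 1288, 1526 and 1588 CPM in EMPA-Pre-AMI. Every EMPA-Pre-AMI library was above every Sham library, and Control-AMI lay between and overlapped with both. The log2 fold change was 0.69 ± 0.17 (SE; FDR: 0.0222) in EMPA-Pre-AMI against Sham, the only member called there (1 of 8, against 2.71% of all genes), and 0.43 ± 0.17 (SE; FDR: 0.159) in Control-AMI against Sham. With the fibroblast list as a term, the first was 0.68 ± 0.17 (SE; FDR: 0.0276), and the fibroblast list itself had 0 of 11 genes called in this comparison. The call held in 10 of the 13 fits that left out 1 library, with a log2 fold change of 0.58 to 0.77, and was lost without Sham library 3 or 4 or EMPA-Pre-AMI library 1, where the FDR was at most 0.0915. The 2 AMI groups did not pass the test of their difference, which was 0.26 ± 0.17 (SE; FDR: 0.590) on the log2 scale. Timp3 thus had a higher level than in Sham in both sorted populations of the EMPA-Pre-AMI hearts. Timp4 in ECs was 177, 279, 176 and 133 CPM in Sham, 155, 249, 189 and 192 CPM in Control-AMI and 516, 205, 248, 239 and 268 CPM in EMPA-Pre-AMI. Its groups overlapped, and the log2 fold change from Sham was 0.01 ± 0.28 (SE; FDR: 0.992) in Control-AMI and 0.62 ± 0.26 (SE; FDR: 0.291) in EMPA-Pre-AMI. The endothelial list was lower in the Control-AMI ECs, with 3 of its 12 genes called, and the log2 fold change of Timp4 there was smaller than its SE. Timp1 in EMPA-Pre-AMI against Sham gave 2.43 ± 0.71 (SE; FDR: 0.0700), with library 3 of EMPA-Pre-AMI at 1 count.

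In cardiomyocytes, Timp1 was too low to be tested and none of the other 7 members was called by edgeR. In Control-AMI against Sham, 0 of 7 had an FDR under 0.05 (0.0655% of all genes did), 2 had an unadjusted p under 0.05, and DESeq2 called 0. In EMPA-Pre-AMI against Control-AMI, 0 of 7 were called (0.0218% of all genes), 2 had an unadjusted p under 0.05, and DESeq2 called 1, Timp2. In EMPA-Pre-AMI against Sham, 0 of 7 were called (0.338% of all genes), 3 had an unadjusted p under 0.05, and DESeq2 called 0. Timp2 came nearest, at 1148, 969, 999 and 1218 CPM in Sham, 831, 915, 1066, 1382 and 1382 CPM in Control-AMI and 268, 372, 175 and 1007 CPM in EMPA-Pre-AMI. EMPA-Pre-AMI libraries 1 to 3 were below every other cardiomyocyte library and library 4 was among them, with a log2 fold change of -1.26 ± 0.37 (SE; FDR: 0.0665) from Control-AMI. Mmp2, at 28.1, 99.4, 2.56 and 101 CPM, and Mmp23, at 4.50, 14, 0 and 21.8 CPM, were lowest in EMPA-Pre-AMI libraries 1 and 3. The fibroblast list in those 4 libraries was 929, 2531, 530.3 and 2989 CPM, against 2286 to 4799 CPM in the Sham and Control-AMI cardiomyocytes, so libraries 1 and 3 were lowest in it too, and its part in the result was not tested. EMPA-Pre-AMI library 4 is the one that shares a sample-sheet list with the other cardiomyocyte groups, and within that list Timp2 gave -0.17 ± 0.29 (SE; FDR: 0.990), a fit in which this lone library is assumed to vary like the others. Without library 4, Timp2 was called in EMPA-Pre-AMI against both Control-AMI (-1.94, FDR: 0.000779) and Sham (-1.88, FDR: 0.000872), and Mmp3 against Sham (2.14, FDR: 0.0390).

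Timp3 in cardiomyocytes was 365, 495, 309 and 397 CPM in Sham, 493, 579, 546, 462 and 486 CPM in Control-AMI and 617, 290, 328 and 422 CPM in EMPA-Pre-AMI, with 0.40 ± 0.21 (SE; FDR: 1.000) in Control-AMI against Sham. Timp4 was 30.2, 85.2, 48.4 and 39.6 CPM, 58, 136, 152, 76.8 and 41.8 CPM and 78.7, 64.3, 33.3 and 53.3 CPM, with 0.87 ± 0.39 (SE; FDR: 1.000). Its 2 highest Control-AMI values were in libraries 2 and 3. The endothelial list there was 1938, 2856, 1560.1, 2603 and 1635 CPM, highest in library 2 and lowest in library 3. Mmp3 was 5.14, 4.37, 2.34 and 5.16 CPM in Sham and 8.28, 14.9, 8.37, 10.8 and 9.37 CPM in Control-AMI, without overlap but on 3 to 20 counts a library, with 1.26 ± 0.60 (SE; FDR: 1.000). Mmp14 was 59.7, 53.5, 56.2 and 56.8 CPM in Sham, 45.2, 64.1, 35, 71.8 and 61.3 CPM in Control-AMI and 28.1, 48, 11.5 and 43.6 CPM in EMPA-Pre-AMI, with -0.73 ± 0.34 (SE; FDR: 0.255) in EMPA-Pre-AMI against Sham.

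Whether the populations differed in their response was tested in 1 fit of all 38 libraries, taken as independent although populations can share hearts. In Control-AMI against Sham, the response of ECs was larger than that of fibroblasts for Mmp2 only, by 2.71 ± 0.75 (SE; FDR: 0.0379) on the log2 scale (3.22% of all genes were called), with Mmp23 next at 2.08 ± 0.62 (SE; FDR: 0.0552). Against cardiomyocytes, the response of ECs was larger for Mmp2, by 2.87 ± 0.74 (SE; FDR: 0.0413), and for Mmp14, by 1.67 ± 0.39 (SE; FDR: 0.0172) (1.51% of all genes). In EMPA-Pre-AMI against Control-AMI, the response of ECs minus that of fibroblasts was -3.33 ± 0.74 (SE; FDR: 0.00811) for Mmp2 and -2.70 ± 0.62 (SE; FDR: 0.0101) for Mmp23 (2.04% of all genes). Between cardiomyocytes and fibroblasts, edgeR called 0 members in Control-AMI against Sham (0.331% of all genes) and 0 in EMPA-Pre-AMI against Control-AMI (0.00827%), with 0 and 1 at an unadjusted p under 0.05. Between ECs and cardiomyocytes it called 0 in the latter comparison (0.993%), with 5 at such a p. The 3 genes called here are among those that moved with the fibroblast list in ECs. For Timp3, the response in Control-AMI of ECs minus that of fibroblasts was -0.38 ± 0.27 (SE; FDR: 0.646), so a difference was not shown.

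Of 19 further metalloproteinase genes, few had enough counts to be tested: 5 in fibroblasts, 2 in ECs and 1 in cardiomyocytes. Mmp15, a membrane-bound relative of Mmp14, was the only one called after ischemia, in ECs, where it was 50.9, 80.5, 75.7 and 60.2 CPM in Sham, 32.5, 16.3, 39.2 and 30.7 CPM in Control-AMI and 45.5, 17.6, 68.1, 39.3 and 53.4 CPM in EMPA-Pre-AMI. Every Control-AMI library was below every Sham library, the opposite direction to Mmp14, with -1.20 ± 0.33 (SE; FDR: 0.0410). With the fibroblast list in the model it was -1.32 (FDR: 0.739) and without Control-AMI libraries 1 and 4 it was -1.29 (FDR: 0.225). Like Timp4, it was higher in the Sham ECs than in the Sham fibroblasts, by 3.64 ± 0.32 (SE; FDR: 2.29e-08). Of 18 genes that activate, dock, inhibit or clear these enzymes, 13 were tested in ECs, and 4 rose in Control-AMI (6.56% of all genes were called in either direction), none fell, and the median log2 fold change was 0.02 against -0.02 over all genes. Lrp1, an endocytic receptor that takes up metalloproteinases and TIMPs, was 21.5, 39.2, 18 and 18.6 CPM in Sham, 307, 72.3, 116 and 215 CPM in Control-AMI and 23.1, 22.7, 16.2, 13.5 and 27.7 CPM in EMPA-Pre-AMI. It was much higher in Sham fibroblasts (647, 971, 933 and 966 CPM), as were the proprotein convertase Pcsk6 and the Timp1 partner Cd63, and these 3 also fell in EMPA-Pre-AMI against Control-AMI. Their log2 fold changes in Control-AMI were 2.84 ± 0.43 (SE; FDR: 0.00300) for Lrp1, 3.08 ± 0.61 (SE; FDR: 0.0141) for Pcsk6 and 1.41 ± 0.31 (SE; FDR: 0.0118) for Cd63. With the fibroblast list in the model these were 0.54 (FDR: 0.811), -0.29 (FDR: 0.942) and -0.05 (FDR: 0.991), and the calls of the 3 genes were lost in both comparisons, as were those of all other genes. Plaur, the urokinase receptor, which localizes plasminogen activation, was 6.54, 1.52, 2.14 and 3.46 CPM in Sham, 6.96, 15.6, 12.4 and 12 CPM in Control-AMI and 9.50, 8.12, 7.06, 17.7 and 13.6 CPM in EMPA-Pre-AMI. It was higher than Sham in both AMI groups, by 1.76 ± 0.43 (SE; FDR: 0.0157) and 1.72 ± 0.42 (SE; FDR: 0.0222), and with the fibroblast list in the model it was 3.13 (FDR: 0.140), no longer called, and 1.55 (FDR: 0.0277). With the replicate block the latter call was lost (FDR: 0.0645). Its level in the Sham fibroblasts was 4.07, 7.33, 1.47 and 3.45 CPM. By edgeR, 0 of 15 of these genes were called in fibroblasts in any comparison (background of 4.16% for Control-AMI against Sham, 5.11% for EMPA-Pre-AMI against Sham and 0% between the AMI groups), with 1 at an unadjusted p under 0.05 in each, and DESeq2 called 0. With the sample-sheet list in the model, edgeR called 1 of 15 in EMPA-Pre-AMI against Sham, where it called 985 genes in all. In cardiomyocytes, edgeR called 0 of 11 in any comparison, with 1 to 5 at an unadjusted p under 0.05. With no filter, it called 1 of 16 in EMPA-Pre-AMI against Control-AMI, where it called 338 genes in all. DESeq2 called 3 of 16 in EMPA-Pre-AMI against Control-AMI, where it called 876 genes in all against 2 by edgeR, and 0 in the other comparisons.

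Across the 38 libraries, the genes whose log2 CPM ran most like that of the members were mostly those of the same population, as a description over points that share cell type. Mmp2 ran most like Ddr2, Bicc1 and Pcsk6 (Pearson's r = 0.991, 0.987 and 0.983), Timp2 like Bgn, Rcn3 and Rnase4 (0.984, 0.982 and 0.981), Mmp14 like Ccdc80, Igfbp4 and C1ra (0.977, 0.976 and 0.970), and Mmp23 like Aldh1a1, Mmp2 and C1ra (0.975, 0.970 and 0.970). Timp4 ran most like Aqp1, Adgrl4 and Adgrg1 (0.985, 0.983 and 0.982), of which Aqp1 is the water channel of the endothelium. Timp1 ran most like Cxcl5, B4galt1 and Ccl7 (0.892, 0.882 and 0.875), which include 2 chemokines, Mmp3 like Ifi205, Tnfaip6 and Dbn1 (0.926, 0.916 and 0.916), and Timp3 like Asap1, Hipk1 and Srsf5 (0.937, 0.936 and 0.931). Over the 13 EC libraries alone, Mmp2 ran most like Axl, Serping1 and Col6a2 (0.990, 0.988 and 0.983), Mmp23 like Fbln1, Tenm3 and C1ra (0.962, 0.955 and 0.954), and Timp2 like Serpine2, Igfbp4 and Ccdc80 (0.986, 0.983 and 0.983). Timp3 there ran like Mcl1, Ccno and Klf9 (0.938, 0.914 and 0.911), and Timp4 like Ucp2, Vsig2 and Trim25 (0.876, 0.871 and 0.862). Timp1 ran like B4galt1, Hspb8 and Eif5 (0.957, 0.933 and 0.925), Mmp14 like Scd1, Entpd2 and Cd63 (0.949, 0.932 and 0.932), and Mmp3 like Ifi27l2a, Naaa and Lhfpl6 (0.903, 0.897 and 0.889). Fbln1 is itself on the fibroblast list.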

How the data were processed

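The authors made 3′ libraries (QuantSeq FWD) of each population, trimmed the reads with cutadapt 2.8 (version from the submitters' processing notes), assigned them with Salmon to GRCm39 transcripts and deposited estimated counts per gene with no normalization. 11.8% of the values above 0 were not whole, and all were rounded. R 4.3.3 and edgeR 4.0.16 were used: low genes were removed by filterByExpr (minimum count of 10, groups given), factors came from TMM, and robust quasi-likelihood models were fitted to the 3 groups of each population, and once to the 12 Sham libraries for the source. p-values were adjusted over all tested genes by Benjamini-Hochberg (FDR), and an FDR under 0.05 is a call. Printed levels are CPM with TMM factors over 38 libraries. Interaction tests used all 38 libraries in 1 fit. Likeness used log2 CPM with a prior count of 2. The alternatives included DESeq2 1.42.0. The steps were tested on simulated data.

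The members, gene lists and tests were chosen with earlier results of these data known. All 8 members are described in every population. Of the further metalloproteinases and regulators, up to 3 called genes a comparison with the lowest FDR were to be named; Plaur was the fourth in ECs and is named through EMPA-Pre-AMI against Sham. Across 62 pairs of libraries of 1 group, the mean squared difference was 4.60 to 87.1 times that of counting error. Libraries of 1 population come from separate experiments, each with 2 pooled hearts. Since cardiomyocytes were pelleted from the digest whose supernatant was sorted, libraries of different populations can share hearts; the labels do not say which, and the fits took them as independent. The protein sequences were not used here.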

Additional observations from a re-analysis of the deposited data

Results flagged for a closer look

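In 3 of the groups tested for a library apart from the rest, 1 library of a member stood out by the ratio of its gap to the whole range, where chance flags about 1 group in 20 and 72 groups were tested. The ratio was 0.888 for Timp1 in the Sham ECs, where library 1 had 4 counts and the others 1 each. It was 0.805 for Timp2 in the EMPA-Pre-AMI ECs, where library 2 was highest at 556 CPM (17.0% of the fibroblast level) and was also highest in the fibroblast list (4.93% of the fibroblast level). It was 0.797 for Timp4 in the EMPA-Pre-AMI ECs, where library 1 stood at 516 CPM.

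The response of a member differed between populations in 5 tests of the difference itself, in 1 fit of all 38 libraries. In Control-AMI against Sham, the log2 response of Mmp2 was higher in ECs by 2.71 than in fibroblasts and by 2.87 than in cardiomyocytes, and that of Mmp14 was higher in ECs by 1.67 than in cardiomyocytes. In EMPA-Pre-AMI against Control-AMI, the difference of ECs from fibroblasts was -3.33 for Mmp2 and -2.70 for Mmp23. The fibroblast list in the Control-AMI ECs was 1558 to 5858 CPM, against 434 to 1147 CPM in the Sham ECs and 402 to 770 CPM in the EMPA-Pre-AMI ECs. Its part in these differences was looked at only through the fits within ECs, where the list and the group cannot be told apart. With the list as a term, Mmp2 was -0.43 and 0.45 there.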

How the results depend on the processing

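The number of members called depended on the processing most in ECs. In Control-AMI against Sham (5 called), it was 0 with a term for the fibroblast list and within sample-sheet list 2 alone, 1 with the sample-sheet list in the model or without Control-AMI libraries 1 and 4 (Timp1 in both), 2 with at least 10 counts in every library or with only the 2 groups compared (Timp1 tested in neither), 6 with DESeq2 (Timp2 added), and 2 to 6 when 1 library was left out. In EMPA-Pre-AMI against Control-AMI (3 called), it was 0 with either term and within list 2, 1 without libraries 1 and 4 (Mmp2), 5 with DESeq2, and 1 to 4 when 1 library was left out. The direction of Mmp2 turned with the fibroblast term, to -0.43 and 0.45, as did that of Mmp14 in the second comparison, to 0.17. These 3 values were no larger than their SE, and the list and the group cannot be told apart in these fits. Timp2, which was not called, turned in both, to -0.47 and 0.68. Leaving out libraries 1 and 4, list 2 alone in ECs and list 4 alone in cardiomyocytes were chosen after seeing the data. In EMPA-Pre-AMI against Sham (1 called), it was 2 with no filter and with DESeq2 (Timp1 and Timp3), 0 within list 2 and 0 to 2 when 1 library was left out.

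In fibroblasts, where Timp3 was called in every fit run from Sham, Control-AMI against Sham (1 called) gave 2 with a replicate block, with the sample-sheet list in the model, with only the 2 groups compared and with DESeq2, and 1 to 2 when 1 library was left out. EMPA-Pre-AMI against Sham (1 called) gave 2 with a replicate block, 3 with the list term and with DESeq2, and 1 to 2 when 1 library was left out. In cardiomyocytes, DESeq2 called 1 in EMPA-Pre-AMI against Control-AMI, and leaving out 1 library gave 0 to 1 there and 0 to 2 in EMPA-Pre-AMI against Sham. In Sham, a minimum of 10 counts in every library removed 4 members from the test, so 4 were called in each of the 3 comparisons. Scaling by library totals and a shorter list of 3 fibroblast genes kept the shares of the fibroblast list within 1 SD, and RLE factors kept the counts.

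The replicate block rests on numbers that do not pair the samples: the deviations of 12 same-numbered pairs correlated by -0.090 to 0.174 (cardiomyocytes), -0.0642 to 0.207 (ECs) and -0.113 to 0.482 (fibroblasts), and 3 of 13, 5 of 13 and 5 of 12 libraries correlated best with their own number. With the block, ECs gained Timp2 and lost Mmp3 in Control-AMI against Sham and lost Mmp14 (FDR: 0.0733) in EMPA-Pre-AMI against Control-AMI, and fibroblasts gained Timp1 from Sham in both AMI groups.

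Counts over all genes moved too. In ECs, Control-AMI against Sham (685) gave 234 with the sample-sheet list in the model, 0 with the fibroblast list, 232 without libraries 1 and 4 and 180 within list 2, and EMPA-Pre-AMI against Control-AMI (274) gave 9, 0, 38 and 3, besides 458 with no filter, 125 with 10 counts in every library and 149 with the block. In fibroblasts, the comparisons with Sham (445 and 546) gave 819 and 985 with the sample-sheet list and 741 and 851 with DESeq2. In cardiomyocytes, Control-AMI against Sham (6) gave 3 to 22 over the alternatives, EMPA-Pre-AMI against Control-AMI (2) gave 0 to 876, the most with DESeq2, and EMPA-Pre-AMI against Sham (31) gave 2 to 194. In Sham, a minimum of 10 counts in every library gave 2754, 3746 and 4169 calls where there had been 4536, 5822 and 6412. Depth limits Timp1 in ECs, where the Sham libraries held 7 counts, and Mmp3 and Mmp23 there, so calls in these genes rest on few reads. Groups of 4 to 5 pools limit all tests.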
